A study of Homo sapiens with 11 samples.

Results

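TP63 and 9 keratin genes were followed in RWPE1 cells, an immortalized and non-tumorigenic line of human prostate epithelium, during a time course of hypoxia. The 10 genes, TP63, KRT5, KRT14, KRT15, KRT17, KRT6A, KRT13, KRT8, KRT18 and KRT19, were picked by symbol as markers of basal and luminal epithelial identity. They were chosen with earlier results of these data known. They make up 10 of the 60676 genes in the count table, and all 10 were among the 19981 genes with enough counts to be tested. RNA sequencing libraries came from normoxic cells (0 h, n = 3) and from cells held at 1% oxygen for 6 h (n = 3), 12 h (n = 3) or 24 h (n = 2), and another 24 h library was not analysed here. All cells grew in keratinocyte serum-free medium with pituitary extract (BPE), EGF, penicillin, streptomycin and amphotericin. Only the hypoxic medium also contained 10 mM HEPES, so low oxygen and the buffer cannot be told apart in any comparison with 0 h. The labels do not say whether replicates were separate cultures, and the p-values therefore measure only the spread between these libraries.

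Keratins are intermediate filament proteins that assemble from pairs of a type I and a type II chain. Basal cells of the prostate and of stratified epithelia typically make KRT5 with KRT14, together with KRT15 or KRT17 and the transcription factor p63, the product of TP63, which maintains basal identity. Luminal secretory cells instead make the simple-epithelial pair KRT8 and KRT18 along with KRT19, while KRT6A is a keratin of stressed or activated epithelium and KRT13 belongs to non-cornified stratified epithelium.

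The libraries held 27496009 to 49488345 counted reads. TMM normalization factors moved with the time in hypoxia, from 1.29 to 1.32 in normoxia down to 0.851 and 0.539 at 24 h, and 24 h replicate 2, which had the lowest factor, stood apart from its partner for several of these genes. The 10 genes took 1.79 to 2.25% of all counted reads in normoxia and 2.43 to 3.70% in hypoxia. Levels are given as TMM-scaled CPM, counts divided by a library's scaled total, and tests are edgeR's quasi-likelihood test across all 11 libraries with Benjamini-Hochberg adjustment over the 19981 tested genes, where an adjusted p under 0.05 is a call. As a check of the labels, the hypoxia-responsive genes SLC2A3, CA9 and EGLN3 were called higher at each hypoxic time point, by 3.17 to 6.77 on the log2 scale (edgeR adjusted p of 3.7e-05 or less). Scaling by library size alone, without the TMM factor, moved the median change over the tested genes, on the log2 scale, to -0.32, -0.50 and -0.97 at 6, 12 and 24 h, compared with -0.0021, -0.033 and -0.065 under TMM. For this reason the direction under library size alone is given wherever it differs. The shares of all tested genes called, given below, are those under TMM. No such share was taken under library size alone, so they are no background for its counts of calls.

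Compared with normoxia, hypoxic RWPE1 cells had less TP63 and KRT15 mRNA and more KRT14, KRT17, KRT6A, KRT8 and KRT18 mRNA at every time point. At 24 h KRT8 was 6.02-fold, KRT17 5.80-fold and KRT18 5.58-fold higher than in normoxia. On the log2 scale these values of 2.59, 2.54 and 2.48 became 1.57, 1.47 and 1.52 under library size alone and 2.01, 1.67 and 2.22 without 24 h replicate 2, and all stayed called. Library size alone also moved KRT14 at 24 h to 1.12, TP63 to -2.37 and KRT15 to -1.92, again all called. KRT19 was lower at 6 h and called higher at 24 h, and KRT5 and KRT13 were called higher at 12 and 24 h, although at 24 h KRT5, KRT13 and KRT19 turned to values below normoxia, not called, under library size alone. At 6 h, 5 of the 10 genes were called higher and 3 lower, against a background of 25.1% of all tested genes called higher and 27.7% called lower. At 12 h, 7 were higher and 2 lower, where 24.2% and 27.1% of all tested genes were called. At 24 h, 8 were higher and 2 lower, where 29.9% and 31.3% of all tested genes were called, and under library size alone the 24 h calls were 4 higher and 2 lower. A bulk library cannot tell fewer cells of a type from less RNA per cell, and this holds for each difference below.

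**Figure D1:**
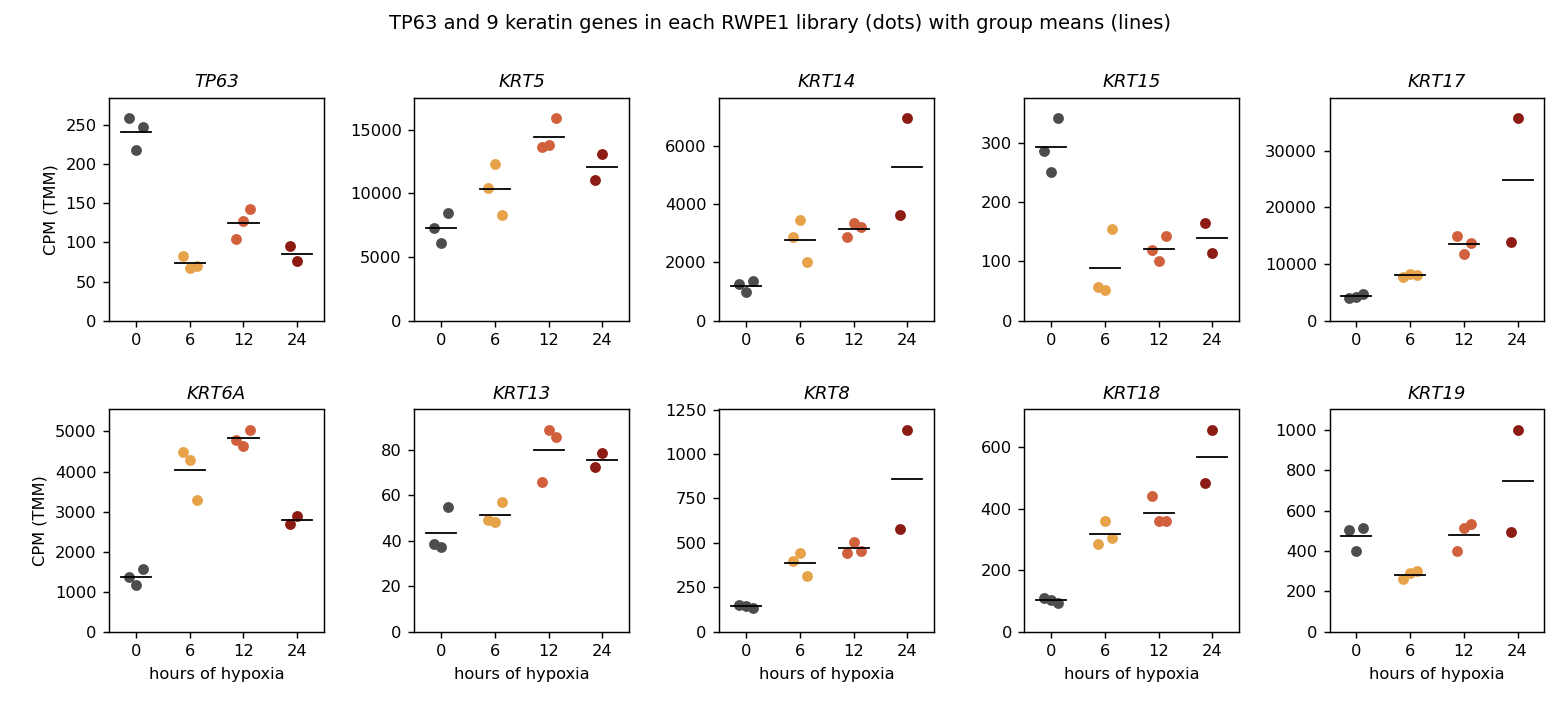
TMM-scaled CPM (y axis, linear, from 0) of each gene in every library (dots) against hours of hypoxia (x axis, evenly spaced categories), with a line at the mean of each group (n = 3, 3, 3 and 2). TP63 and KRT15 lie lower in all 8 hypoxic libraries than in the 3 normoxic ones, and the second 24 h library lies far above the first for KRT14, KRT17, KRT8 and KRT19.

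TP63 (ENSG00000073282; GRCh38 chr3:189631389-189897276, plus strand) encodes the p53-family transcription factor of basal cells. Its level was 258.8, 218 and 247.4 CPM in the 3 normoxic libraries, 83.24, 66.96 and 70.14 CPM at 6 h, 104.5, 127.2 and 142.9 CPM at 12 h, and 95.18 and 76.03 CPM at 24 h. Every hypoxic library lay below every normoxic one, with the lowest group at 6 h, a partial return at 12 h, and 24 h values that overlapped those of 6 h. TP63 fell by 1.72 ± 0.16 (SE) on the log2 scale at 6 h (edgeR adjusted p = 5.43e-06), by 0.95 ± 0.16 at 12 h (edgeR adjusted p = 0.000397) and by 1.495 ± 0.185 at 24 h (edgeR adjusted p = 2.66e-05). These counts cover the whole gene, so the full-length and the amino-terminally truncated p63 isoforms, which start at separate promoters, were not separated. None of the 75-base or 36-base windows of the TP63 canonical transcript occurs elsewhere in the genome or in another gene's transcripts.

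KRT5 (ENSG00000186081; chr12:52514575-52520530, minus strand) encodes the main type II keratin of basal cells. It stood at 7289, 6073 and 8453 CPM in normoxia, 10440, 12260 and 8260 CPM at 6 h, 13620, 13790 and 15870 CPM at 12 h, and 11060 and 13070 CPM at 24 h. One 6 h library fell inside the normoxic range, whereas all 12 h and 24 h libraries lay above it. KRT5 was not called at 6 h (log2 fold change 0.51 ± 0.23, edgeR adjusted p = 0.0863), and it was 0.99 ± 0.24 higher at 12 h (edgeR adjusted p = 0.00408) and 0.73 ± 0.26 higher at 24 h (edgeR adjusted p = 0.0262), the last turning to -0.21 under library size alone (adjusted p = 0.423). The 24 h call was lost without 0 h replicate 1 (edgeR adjusted p = 0.0718) or 0 h replicate 2 (0.103) and with only the 2 groups in the fit (0.115), and a 6 h call was gained without 24 h replicate 1 (0.0263) or replicate 2 (0.0241). The call at 6 h was also gained with limma-voom (adjusted p = 0.0445), DESeq2 (0.0145) or only the 2 groups in the edgeR fit (0.0219).

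Promoter sequences from RefSeq (GRCh38.p14) matched 3 of the 10 genes, TP63, KRT5 and KRT8. The KRT5 sequence is shown because p63 belongs to the p53 family and this family's half-site occurs once in the 250 bases before the KRT5 start (chr12:52520395-52520644, minus strand, read 5′ to 3′), where capitals mark the match.
KRT5 promoter: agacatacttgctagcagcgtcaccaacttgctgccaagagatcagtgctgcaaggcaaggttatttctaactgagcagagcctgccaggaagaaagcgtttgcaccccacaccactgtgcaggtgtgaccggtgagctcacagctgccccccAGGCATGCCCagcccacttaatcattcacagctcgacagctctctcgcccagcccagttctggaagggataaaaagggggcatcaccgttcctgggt
On both strands, the half-site occurred in 5.57% of the 35116 RefSeq windows of this length, once in the KRT8 window and not in the TP63 window. The hypoxia response cores ACGTG (in 18.5% of windows) and GCGTG (32.2%), the TATA box TATAAA (10.7%) and the GC box GGGCGG (42.6%) had no match in these 3 windows on either strand. The cores differ from each other in their first base alone, so their matches can overlap. The TP63 window ends just before the first base of the annotated gene, so any promoter inside TP63 was not searched. The RefSeq start used for KRT5 is that of its canonical GENCODE transcript. The annotated KRT5 gene reaches further upstream, to chr12:52520530, so part of its window, with the half-site, lies inside the gene. The RefSeq start used for KRT8 differs by -21393 bases, upstream, from the start of its canonical GENCODE transcript. Its matches therefore do not describe the sequence just before that transcript, and its window was not printed.

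KRT14 (ENSG00000186847; chr17:41582279-41586895, minus strand) encodes the type I partner of KRT5. Its level was 1266, 979.9 and 1360 CPM in normoxia, 2865, 3445 and 2014 CPM at 6 h, 2886, 3343 and 3228 CPM at 12 h, and 3615 and 6943 CPM at 24 h. All hypoxic libraries lay above the normoxic range, the 12 h values lay within the 6 h range, and the second 24 h library was well above the first. The rise was 1.21 ± 0.27 on the log2 scale at 6 h (edgeR adjusted p = 0.00256), 1.39 ± 0.27 at 12 h (edgeR adjusted p = 0.00119) and 2.14 ± 0.30 at 24 h (edgeR adjusted p = 6.38e-05). Without 24 h replicate 2 the 24 h value was 1.57 and remained called.

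KRT14 shares stretches of 75 bases, the length of the reads, with KRT16 but not with KRT17, both type I neighbours on the same chromosome. The following coding windows of 75 bases begin at the first stretch that KRT14 and KRT16 share base for base in a single exon (KRT14 chr17:41586451-41586525, KRT16 chr17:41612299-41612373, KRT17 chr17:41624219-41624293, all minus strand, GRCh38), and capitals mark the bases at which KRT17 and KRT14 differ.
KRT14: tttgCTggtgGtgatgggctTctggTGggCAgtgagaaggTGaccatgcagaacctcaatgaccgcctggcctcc
KRT16: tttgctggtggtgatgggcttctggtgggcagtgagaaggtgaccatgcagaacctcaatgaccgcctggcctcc
KRT17: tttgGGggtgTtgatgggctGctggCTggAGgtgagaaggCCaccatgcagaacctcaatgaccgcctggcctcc
KRT16 had 0 differences from KRT14 in this window and KRT17 had 10. Over the whole coding sequence, KRT14 was 85.2% identical to KRT16 and 77.9% identical to KRT17. Of the 75-base windows of the KRT14 canonical transcript, 10.2% occurred elsewhere, and 5.38% occurred in KRT16. KRT16, a keratin of activated epithelium, averaged 1497 CPM in normoxia and 993.3, 1369 and 1471 CPM at 6, 12 and 24 h, and was not called in any comparison with normoxia (edgeR adjusted p of 0.0678, 0.693 and 0.944). Under library size alone KRT16 was called lower at each time, with -0.91, -0.60 and -1.04 on the log2 scale (edgeR adjusted p = 0.0026, 0.0237 and 0.00171).

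KRT17 (ENSG00000128422; chr17:41619442-41624842, minus strand) encodes a type I keratin of basal and activated epithelial cells. It measured 3937, 4157 and 4688 CPM in normoxia, 7725, 8278 and 7972 CPM at 6 h, 14850, 11780 and 13730 CPM at 12 h, and 13790 and 35650 CPM at 24 h. The 0 h, 6 h and 12 h groups did not overlap, the first 24 h library lay within the 12 h range, and the second was far above every other library. KRT17 was 0.91 ± 0.30 higher at 6 h on the log2 scale (edgeR adjusted p = 0.0233), 1.66 ± 0.31 higher at 12 h (edgeR adjusted p = 0.000834) and 2.54 ± 0.34 higher at 24 h (edgeR adjusted p = 4.46e-05). Without 24 h replicate 2 the 24 h value was 1.67. Leaving out any of the 3 normoxic libraries ended the 6 h call (edgeR adjusted p = 0.0842, 0.0734 and 0.0513), and so did leaving out the second (0.0652) or the third (0.0513) 6 h library. Reads were also assigned to the annotated pseudogenes KRT17P1, KRT17P2, KRT17P3 and KRT17P6, which had mean levels between 105 and 145 CPM in normoxia and between 479.4 and 778.1 CPM after 24 h, and 4.57% of the 75-base windows of KRT17 occurred elsewhere.

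KRT15 (ENSG00000171346; chr17:41513745-41522529, minus strand) encodes a type I keratin of basal and progenitor cells. It was at 285.5, 250.1 and 341 CPM in normoxia, 57.4, 51.69 and 154.8 CPM at 6 h, 119, 101.3 and 142.9 CPM at 12 h, and 164.1 and 114.8 CPM at 24 h. All hypoxic libraries lay below the normoxic range, and 6 h replicate 3 exceeded every 12 h library while the other 6 h libraries were the lowest measured. KRT15 fell by 1.73 ± 0.35 on the log2 scale at 6 h (edgeR adjusted p = 0.00133), by 1.27 ± 0.35 at 12 h (edgeR adjusted p = 0.00888) and by 1.07 ± 0.40 at 24 h (edgeR adjusted p = 0.0329). Without 6 h replicate 3 the 6 h value was -2.42. The 24 h call was lost without 0 h replicate 1 (edgeR adjusted p = 0.0557), 0 h replicate 3 (0.0833) or 24 h replicate 2 (0.155). No 75-base window of the KRT15 transcript occurred elsewhere.

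KRT6A (ENSG00000205420; chr12:52487176-52493257, minus strand) encodes a type II keratin of wounded and activated epithelium. Its level was 1358, 1177 and 1577 CPM in normoxia, 4498, 4298 and 3292 CPM at 6 h, 4798, 4633 and 5044 CPM at 12 h, and 2693 and 2883 CPM at 24 h. The 4 groups did not overlap, with the highest values at 12 h and the 24 h libraries between those of 0 h and 6 h. KRT6A was 1.56 ± 0.20 higher at 6 h (edgeR adjusted p = 4.57e-05), 1.82 ± 0.20 higher at 12 h (edgeR adjusted p = 2.19e-05) and 1.02 ± 0.21 higher at 24 h (edgeR adjusted p = 0.00124) on the log2 scale. Under library size alone the 24 h value was 0.10 and was not called (adjusted p = 0.683).

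The KRT6A coding sequence is 97.5% identical to that of KRT6B and 97.9% identical to that of KRT6C, and 26.2% of the 75-base windows of its canonical transcript occurred in another place. The windows below, in coding exon 2, are the 75-base stretch with the most differences between KRT6A and the closer of its 2 relatives (KRT6A chr12:52491532-52491606, KRT6B chr12:52450416-52450490, KRT6C chr12:52472076-52472150, minus strand, GRCh38), with capitals at bases that differ from KRT6A or, for KRT6A, from either relative.
KRT6A: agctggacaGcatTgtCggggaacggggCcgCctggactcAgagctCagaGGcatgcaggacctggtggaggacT
KRT6B: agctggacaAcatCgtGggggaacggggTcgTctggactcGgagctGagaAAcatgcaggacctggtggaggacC
KRT6C: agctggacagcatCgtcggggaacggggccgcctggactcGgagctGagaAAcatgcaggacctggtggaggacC
KRT6B had 10 differences from KRT6A in this window and KRT6C had 6. The 2 relatives averaged 411 and 485 CPM in normoxia and 1214 and 1510 CPM at 12 h. KRT6B was called higher by 1.23, 1.56 and 0.69 at 6, 12 and 24 h on the log2 scale (edgeR adjusted p = 9.07e-05, 2.37e-05 and 0.00697), and KRT6C by 1.30, 1.64 and 0.69 (edgeR adjusted p = 7.88e-05, 2.14e-05 and 0.00834), but at 24 h both turned to -0.21 under library size alone (adjusted p = 0.443 and 0.442). How reads with several matches were counted is not given in the sources used here, so the split of reads among the KRT6 genes is uncertain.

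KRT13 (ENSG00000171401; chr17:41500981-41505705, minus strand) encodes a type I keratin of non-cornified stratified epithelium and had the lowest mean level per kilobase of the 10 genes in normoxia. It measured 38.8, 37.19 and 54.76 CPM in normoxia, 49.24, 48.32 and 57.2 CPM at 6 h, 66.05, 88.9 and 85.54 CPM at 12 h, and 72.43 and 78.59 CPM at 24 h. The 0 h and 6 h groups overlapped, all 12 h and 24 h libraries lay above both, and the 24 h values lay within the 12 h range. KRT13 was not called at 6 h (log2 fold change 0.24 ± 0.17, edgeR adjusted p = 0.249), with -0.071 under library size alone. It was 0.88 ± 0.17 higher at 12 h (edgeR adjusted p = 0.00121) and 0.79 ± 0.19 higher at 24 h (edgeR adjusted p = 0.00312), values that became 0.42 (adjusted p = 0.113) and -0.13 (adjusted p = 0.636) under library size alone. Exons of genes on the opposite strand cover 16.3% of its exonic bases, and the strand setting of the counting is not given in the sources used here.

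KRT8 (ENSG00000170421; chr12:52897187-52949954, minus strand) and KRT18 (ENSG00000111057; chr12:52948871-52952906, plus strand) encode the type II and type I chains of the simple-epithelial pair and lie side by side, with 7.63% of the exonic bases of KRT8 and 17.1% of those of KRT18 overlapped on the opposite strand. KRT8 was at 148.5, 147 and 132.5 CPM in normoxia, 398.4, 445.3 and 311.3 CPM at 6 h, 445.4, 504.5 and 456.1 CPM at 12 h, and 580.9 and 1137 CPM at 24 h. KRT18 was at 108.3, 104 and 93.86 CPM in normoxia, 285.7, 361.1 and 303.5 CPM at 6 h, 440.1, 360.8 and 360.8 CPM at 12 h, and 482.4 and 657.2 CPM at 24 h. For both genes all hypoxic libraries lay above the normoxic range and both 24 h libraries lay above all others.

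KRT8 was higher by 1.43 ± 0.22, 1.72 ± 0.23 and 2.59 ± 0.25 on the log2 scale at 6, 12 and 24 h (edgeR adjusted p = 0.000208, 7.95e-05 and 4.63e-06). KRT18 was higher by 1.63 ± 0.17, 1.92 ± 0.17 and 2.48 ± 0.18 (edgeR adjusted p = 9.7e-06, 5.44e-06 and 1.13e-06). Both stayed called under library size alone, at 1.57 and 1.52 at 24 h, and without 24 h replicate 2, at 2.01 and 2.22. In the canonical transcripts, 22.5% of the 75-base windows of KRT8 and 29.1% of those of KRT18 were found elsewhere or in another gene's transcripts. Of the KRT18 windows, 21.9% occurred in KRT8, whose exons overlap KRT18 on the opposite strand. Such windows can be the same bases read on the other strand rather than a separate copy.

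KRT19 (ENSG00000171345; chr17:41523617-41528308, minus strand) encodes a type I keratin of simple and luminal epithelium. It measured 506.4, 401.7 and 515.7 CPM in normoxia, 261.4, 290 and 299.2 CPM at 6 h, 399.8, 512.2 and 532.1 CPM at 12 h, and 492.7 and 1002 CPM at 24 h. The 6 h libraries were the lowest of all, the 12 h range overlapped that of normoxia, and at 24 h 1 library lay within the normoxic range and the other well above it. KRT19 fell by 0.74 ± 0.23 on the log2 scale at 6 h (edgeR adjusted p = 0.0166), was not called at 12 h (0.02 ± 0.23, edgeR adjusted p = 0.947; -0.44 under library size alone), and was called higher at 24 h by 0.65 ± 0.25 (edgeR adjusted p = 0.04; -0.37 under library size alone). Without 24 h replicate 2 the 24 h value was 0.034 (edgeR adjusted p = 0.892), and that call was also lost when any of the 3 normoxic libraries was left out (0.0669, 0.133 and 0.0619). It was lost as well without the first (edgeR adjusted p = 0.0514) or the second (0.0551) 6 h library, without the second (0.0676) or the third (0.0517) 12 h library, with limma-voom (0.0635) and with only the 2 groups in the fit (0.123). The 6 h call was lost without 0 h replicate 1 (edgeR adjusted p = 0.0534), 0 h replicate 3 (0.056) or 6 h replicate 1 (0.0603). No 75-base window of KRT19 occurred elsewhere.

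**Figure D2:**
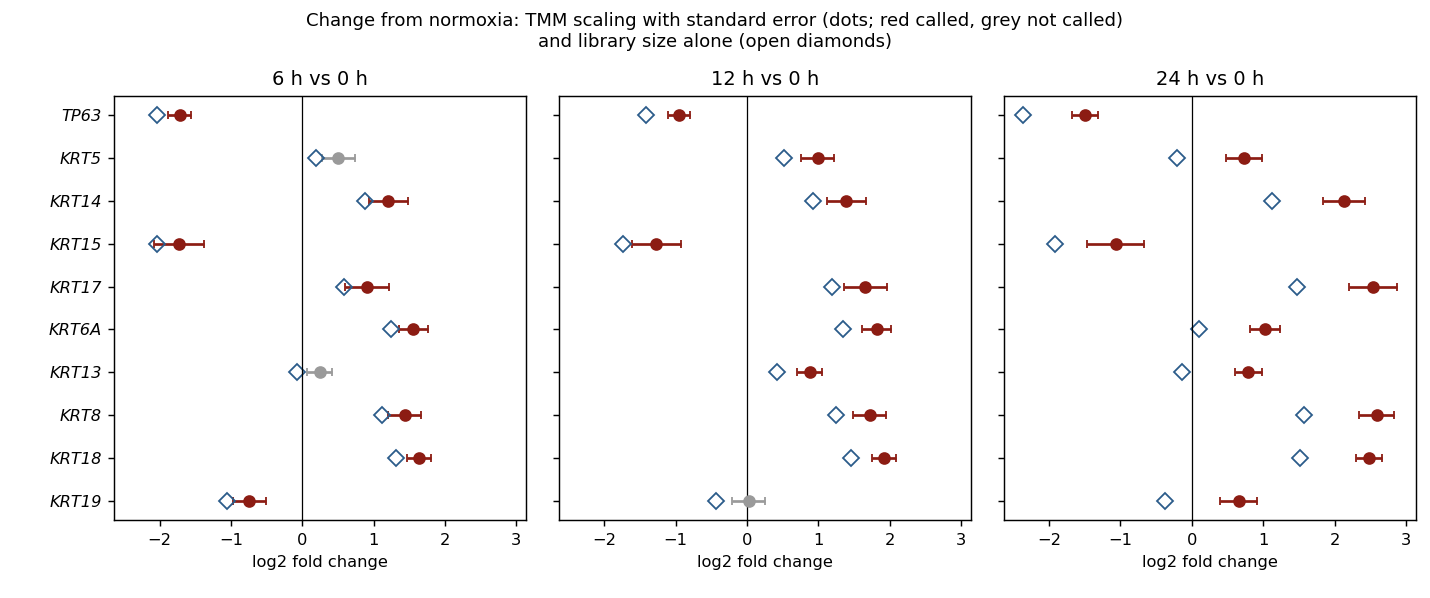
The log2 fold change from normoxia (x axis) of each gene at 6, 12 and 24 h, from edgeR with TMM scaling (dots, with bars of 1 standard error; red where called, grey where not called) and with library size alone (open diamonds). At 24 h the diamonds of KRT5, KRT13 and KRT19 lie below 0, at -0.21, -0.13 and -0.37, while their TMM values lie above it.

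Between successive hypoxic time points fewer of the 10 genes differed. From 6 h to 12 h, TP63 was the single gene called higher (log2 fold change 0.77 ± 0.16, edgeR adjusted p = 0.0205) and 0 were called lower, where 1.88% of all tested genes were called higher and 3.07% lower. At an unadjusted p under 0.05, 4 of the 10 genes were higher and 0 lower, limma-voom called 1 and DESeq2 called 3, all higher. The TP63 call was lost without 6 h replicate 2 (edgeR adjusted p = 0.0972), 12 h replicate 2 (0.084) or 12 h replicate 3 (0.114), and under library size alone (0.163). Without 6 h replicate 3, KRT15 was also called higher, by 1.15 (edgeR adjusted p = 0.0157), and without 12 h replicate 1 KRT13 was, by 0.76 (0.0458). Without either 24 h library, KRT17, KRT13 and KRT19 were called higher in addition to TP63.

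From 12 h to 24 h, KRT8 (0.87 ± 0.24, edgeR adjusted p = 0.0192) and KRT18 (0.56 ± 0.18, edgeR adjusted p = 0.0364) were higher, and TP63 (-0.54 ± 0.18, edgeR adjusted p = 0.0384) and KRT6A (-0.79 ± 0.22, edgeR adjusted p = 0.0199) were lower, where 15.1% and 13.3% of all tested genes were called in these directions. Under library size alone, 0 of the 10 genes were called higher, with 0 at an unadjusted p under 0.05, and 3 were called lower. All 4 calls were lost with only the 2 groups in the fit, and that of KRT18 without the filter on low counts (edgeR adjusted p = 0.116). Without 24 h replicate 2, KRT8 was 0.30 higher (edgeR adjusted p = 0.264), KRT18 was 0.30 higher (0.228) and TP63 was -0.41 (0.151), none of them called. The same 3 genes also lost their calls without 12 h replicate 3 (edgeR adjusted p = 0.0634 for KRT8, 0.12 for KRT18 and 0.138 for TP63), as did KRT6A (0.0668). TP63 and KRT18 lost their calls as well without 12 h replicate 2 (edgeR adjusted p = 0.0887 and 0.119) or without any 1 of the normoxic libraries (0.0511 to 0.0601 for TP63 and 0.0562 to 0.0582 for KRT18). Without 24 h replicate 1, KRT14 (1.11), KRT17 (1.38) and KRT19 (1.03) were called higher in addition (edgeR adjusted p = 0.00245, 5.13e-05 and 0.000533).

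Ratios of 2 keratins within a library do not depend on the scaling between libraries and were taken on CPM per kilobase of exonic length. KRT5 to KRT14, the basal pair, had a ratio of 3.14, 3.38 and 3.39 in normoxia, 1.99, 1.94 and 2.24 at 6 h, 2.57, 2.25 and 2.68 at 12 h, and 1.67 and 1.03 at 24 h. KRT5 thus exceeded KRT14 in every library, by less in all 8 hypoxic libraries than in any normoxic one. KRT8 to KRT18, the simple pair, had a mean ratio of 0.624 ± 0.011 (SD, n = 3) in normoxia, 0.543 ± 0.082 at 6 h, 0.546 ± 0.087 at 12 h (n = 3 each) and 0.654 ± 0.17 at 24 h (n = 2), and the hypoxic ranges overlapped that of normoxia or included it.

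The ratio of the basal keratin KRT5 to the simple keratin KRT8 was 85.6 ± 19 (SD, n = 3) in normoxia, 44.6 ± 1.2 at 6 h, 51.4 ± 6.2 at 12 h (n = 3 each) and 25.4 ± 8.9 at 24 h (n = 2). The lowest normoxic value, 68.8, was above the highest hypoxic value, 57.9. KRT14 to KRT15 had a ratio of 11.7, 10.4 and 10.6 in normoxia and of 34.4 to 176 in the hypoxic libraries, and the lowest hypoxic value was that of 6 h replicate 3. Summed over KRT5, KRT14, KRT15 and KRT17, basal keratin mRNA was 14.6 ± 1.2 times the sum of KRT8, KRT18 and KRT19 in normoxia, 22.8 ± 2.1 times at 6 h, 23.5 ± 2.0 times at 12 h and 21.1 ± 2.0 times at 24 h. Per kilobase of exonic length, the KRT5 to KRT8 and the basal to simple ratios thus moved in opposite directions. KRT17 and KRT14 are large in the basal sum and KRT19 in the simple sum. These statements carry no test, and the size of each ratio depends on the gene length used. Without division by length, the basal to simple ratios of both 24 h libraries lay within the normoxic range.

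**Figure D3:**
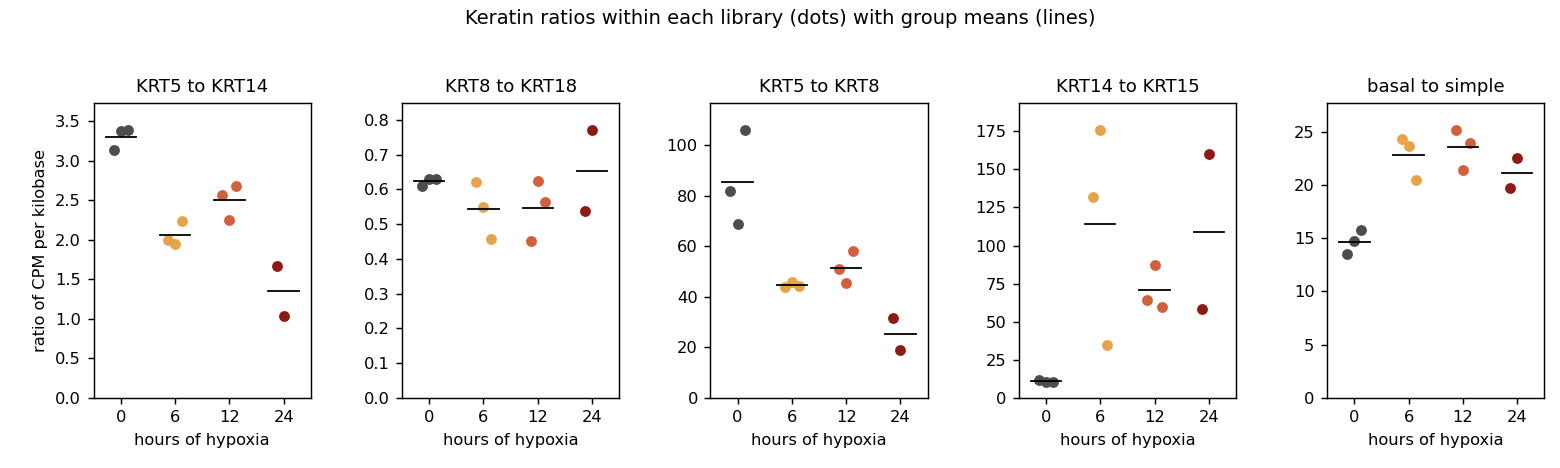
Ratios of keratin CPM per kilobase within each library (dots; y axes linear, from 0) against hours of hypoxia, with a line at each group mean (n = 3, 3, 3 and 2). The KRT5 to KRT14 and KRT5 to KRT8 ratios are lower and the KRT14 to KRT15 and basal to simple ratios higher in all hypoxic libraries than in the normoxic ones.

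Per kilobase in normoxia, KRT5 stood at 1759 ± 288 CPM (SD, n = 3), KRT17 at 1422 ± 129, KRT14 at 533 ± 87.7 and KRT6A at 468 ± 68.5, and then KRT19 at 203 ± 27.1, KRT15 at 48.9 ± 7.7, KRT18 at 33.3 ± 2.4, TP63 at 32.3 ± 2.8, KRT8 at 20.7 ± 1.3 and KRT13 at 14.96 ± 3.34. Neighbours in this order whose library ranges overlapped were KRT5 and KRT17, KRT14 and KRT6A, and KRT18 and TP63. The order depends on the gene length used, as do the shares below. With canonical transcript lengths, an alternative chosen after seeing the data, KRT8 (79.96) stood above KRT18 (72.23) and TP63 (48.83) in normoxia. Within the type I keratins of the set, KRT17 made up 60 to 66.6% of the summed CPM per kilobase in normoxia and 60.6 to 75.9% in hypoxia, KRT19 8.26 to 9.90% and then 2.60 to 3.78%, and KRT15 2.01 to 2.29% and then 0.123 to 0.678%. Within the type II keratins, KRT6A took between 20.6 and 21.2% in normoxia. Its share lay between 32.6 and 37.3% after 6 h, between 30.6 and 32.8% after 12 h, and was 25% and 22.8% in the 24 h libraries. The KRT8 share of type II was 0.740 to 1.13% in normoxia and 1.18 to 3.83% in hypoxia, with the 2 highest values at 24 h.

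**Figure D4:**
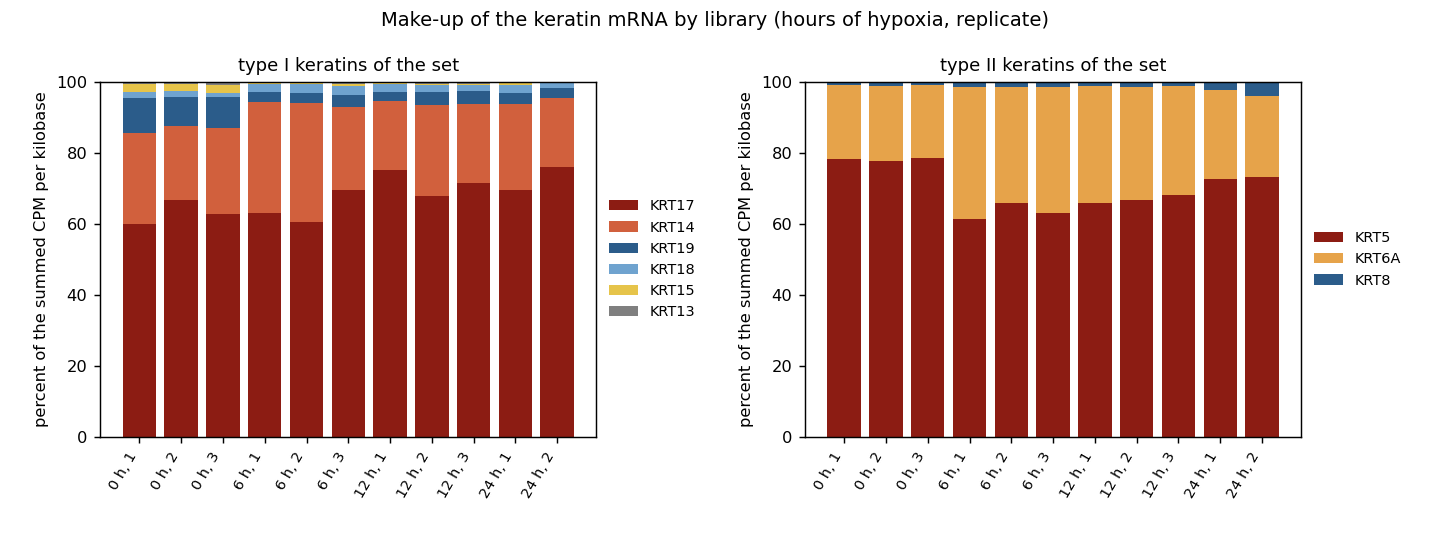
Percent of the summed CPM per kilobase (y axis) taken by each type I keratin (left) and type II keratin (right) of the set in every library (x axis: hours of hypoxia, replicate). In the hypoxic libraries the KRT19 and KRT15 shares of type I are smaller than in the 3 normoxic ones, and the KRT6A share of type II is greatest at 6 h.

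Of the 46 other keratin genes, 19 had at most 3 counts in each library and 17 were tested. Of these 17, 6 were called higher and 1 lower at 6 h, 5 higher and 0 lower at 12 h, and 3 higher and 2 lower at 24 h. Over all tested genes, 25.1%, 24.2% and 29.9% were called higher at these times and 27.7%, 27.1% and 31.3% lower. The median log2 fold changes of the 17 were 0.29, 0.48 and 0.33 against -0.0021, -0.033 and -0.065 over all tested genes. Under library size alone these medians were -0.029, 0.012 and -0.54, with 3, 3 and 0 genes higher and 4, 2 and 6 lower.

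Of 10 basal markers that are not keratins, 7 were called higher at each time and 2, 1 and 2 lower at 6, 12 and 24 h. Their medians were 1.05, 1.21 and 1.5, and under library size alone 5, 6 and 4 were higher and 2, 1 and 2 lower. For this list and the hemidesmosome list below, the shares of all tested genes called under TMM were 25.1%, 24.2% and 29.9% higher and 27.7%, 27.1% and 31.3% lower. S100A2, a calcium-binding protein of basal cells, had a mean of 375 CPM in normoxia and of 5098 CPM after 24 h. SFN, the epithelial 14-3-3 protein, had 429 and 1717 CPM, and CD44, the hyaluronan receptor, had 492.6 and 1031 CPM. All 3 were called higher at each time (edgeR adjusted p of 0.00137 or less), and CD44 kept its sign but not its call at 6 and 24 h under library size alone (0.52 and 0.22). Among 10 genes of hemidesmosomes and laminin-332, which anchor basal cells to the basement membrane, 6, 5 and 4 were higher and 0, 0 and 1 lower, whereas under library size alone 2, 1 and 1 were higher and 0, 1 and 4 lower. ITGA6, the integrin alpha 6 chain, was higher by 1.70, 1.68 and 1.25 on the log2 scale (edgeR adjusted p = 0.000209, 0.000293 and 0.00234). Its 24 h call was lost under library size alone (0.43, edgeR adjusted p = 0.31). LAMB3, a laminin-332 chain, was higher by 0.69, 0.66 and 1.15 (edgeR adjusted p = 0.00222, 0.00335 and 8.21e-05), calls that were all lost under library size alone. COL17A1, a transmembrane collagen of hemidesmosomes, was higher by 0.81 and 0.58 at 6 and 12 h (edgeR adjusted p = 0.000788 and 0.00709) and not called at 24 h (0.12, edgeR adjusted p = 0.572), where library size alone called it lower (-0.79, adjusted p = 0.00819).

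Desmosomal genes encode the proteins that tie keratin filaments to cell junctions. Of 12, 1, 2 and 2 were called higher and 5, 5 and 7 lower at 6, 12 and 24 h, with medians of -0.31, -0.24 and -0.60. For each list in this paragraph, the shares of all tested genes called under TMM were 25.1%, 24.2% and 29.9% higher and 27.7%, 27.1% and 31.3% lower. Under library size alone, 1, 1 and 0 desmosomal genes were higher and 6, 6 and 9 lower, where the median over all tested genes was itself -0.32, -0.50 and -0.97. PKP1, a plakophilin, fell by 0.87, 0.74 and 1.56 on the log2 scale (edgeR adjusted p = 0.00229, 0.00671 and 8.4e-05), while DSP, the desmoplakin that binds keratin, was called at 12 h alone among the 3 times, higher by 1.01 (edgeR adjusted p = 0.00597), a call lost under library size alone (0.54, adjusted p = 0.183). Of 15 transcription factors of stratified epithelium, 4, 4 and 6 were higher and 5, 4 and 5 lower, against 1, 3 and 2 higher and 7, 6 and 8 lower under library size alone. ELF3, an epithelial ETS factor, was among them higher at 12 h and 24 h (1.33 and 2.26, edgeR adjusted p = 0.00205 and 5.97e-05). Of 14 tested genes of squamous differentiation, 0, 5 and 4 were higher and 3, 1 and 4 lower, against 0, 0 and 2 higher and 4, 3 and 7 lower under library size alone. KRT10, the type I keratin of suprabasal cells, fell by 1.30 at 6 h and by 1.37 at 24 h on the log2 scale (edgeR adjusted p = 0.00411 and 0.00596) and was -0.17 at 12 h, not called. TGM1, the transglutaminase of the cornified envelope, fell by 0.90 at 6 h (edgeR adjusted p = 0.00295) and was not called at 12 or 24 h. Library size alone called TGM1 lower at both of these times (-0.84 and -1.31, edgeR adjusted p = 0.00149 and 0.000112). SPRR1B, a cornified envelope precursor, was higher by 1.096 at 12 h and by 0.67 at 24 h (edgeR adjusted p = 0.00146 and 0.0294), the former not called (0.62) and the latter turning to -0.20 under library size alone.

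Luminal markers other than keratins were low in all libraries, and defining secretory genes had few or no counts. KLK3, the gene of prostate-specific antigen, had 0 counts in all libraries, and KLK2, a related kallikrein, had at most 1 count. The summed level of the 13 luminal genes was 19.8 to 20.4 CPM in normoxia and 16.6 to 25.4 CPM in hypoxia. Of the 9 that were tested, 2, 3 and 2 were higher and 1, 1 and 2 lower at 6, 12 and 24 h. The shares over all tested genes were 25.1%, 24.2% and 29.9% higher and 27.7%, 27.1% and 31.3% lower. By the marker counts, the labelled prostate epithelial line carried basal markers in every library, with KLK3 and KLK2 at or near 0. Markers of other cell types were low as well. The 7 neuroendocrine genes summed to 0.505 to 1.01 CPM and the 7 immune and endothelial genes to 0.300 to 0.898 CPM over all libraries. Of 10 stromal genes, 6 never exceeded 3 counts, and COL1A1, at 27.7 to 60.5 CPM, made up most of their sum of 30.8 to 63.7 CPM, which was highest in normoxia. COL1A1 was called lower at 12 and 24 h (-0.50 and -0.86, edgeR adjusted p = 0.0327 and 0.00293), and its part in the results was not tested. DCN, LUM and DES, defining genes of fibroblasts and muscle, had at most 1 count. In the same stromal list, MYH11 had up to 141 counts (0.545 to 3.44 CPM) and ACTA2 up to 61 (0.622 to 1.44 CPM).

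The genes whose profile over the 11 libraries lay nearest to each of the 10 were sought by the root mean square difference of log2 CPM, centred on normoxia, over the 17695 other tested genes with a symbol. KRT18 was the 28th nearest gene to KRT8 (0.236) and KRT8 the 26th nearest to KRT18, which was the closest approach between any pair of the set. KRT5 and KRT13 lay 0.252 apart, KRT14 and KRT8 0.313, KRT17 and KRT14 0.336, KRT15 and TP63 0.494, and KRT19 lay at least 0.734 from each of the others. Of the set, KRT14 was thus nearest to the simple keratin KRT8. TWIST2, GLA and DANCR were nearest to KRT8 (0.090 to 0.131), and ENO1, RNF8 and KRT18P10 to KRT18 (0.156 to 0.163). RBL1, GTF2H3 and ZNF641 were nearest to TP63 (0.144 to 0.158), TRIM29, DTX2 and DTX2P1 to KRT5 (0.167 to 0.182), RRP9, ALYREF and TIMM13 to KRT14 (0.138 to 0.158), and STYK1 and OASL were near KRT15 (0.246 and 0.262). DRAP1, CUTA and COX6A1P2 were nearest to KRT17 (0.158 to 0.191), BICD1, GEMIN5 and HSP90AB2P to KRT6A (0.176 to 0.189), IL1RN, FABP5P10 and DDX41 to KRT13 (0.204 to 0.216), and MED30, SNAPIN and PDLIM4 to KRT19 (0.101 to 0.178).

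**Figure D5:**
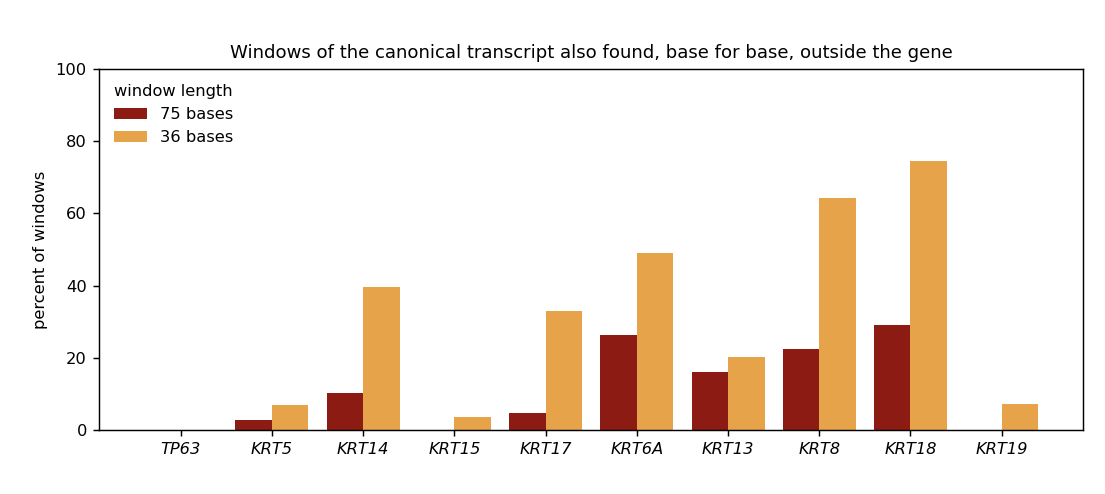
Percent of the windows of each gene's canonical transcript (y axis, 0 to 100) that also occur, base for base, outside the gene, in the genome on either strand or in another gene's transcripts, for windows of 75 bases (dark) and 36 bases (light). The 75-base share is 0 for TP63, KRT15 and KRT19 and 29.1% for KRT18, and the 36-base share reaches 74.4% for KRT18. Windows shared with a gene that overlaps on the opposite strand count too, as for KRT18 and KRT13.

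At 36 bases, the shortest read the authors kept after trimming, the share of windows found elsewhere was 0 for TP63, 3.58% for KRT15, 6.76% for KRT5, 7.23% for KRT19 and 20.3% for KRT13, and then 32.9% for KRT17, 39.7% for KRT14, 48.9% for KRT6A, 64.4% for KRT8 and 74.4% for KRT18. A share of windows is not a share of reads, and the part of shared reads in the results was not tested.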

How the data were processed

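RNA longer than 200 nucleotides from RWPE1 cells was sequenced as single-end reads of up to 75 bases from stranded libraries built in 1 batch, and 11 libraries were analysed. The deposited table holds whole-number read counts per Ensembl gene, not normalized, which the authors made by trimming with Trimmomatic, aligning to GRCh38 with STAR and counting with featureCounts. The authors' normalized values and tests were not used, and 0 columns were left over. Symbols, positions and lengths came from GENCODE 44 on the same build (60357 of 60676 IDs found, 42009 with a symbol).

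filterByExpr (minimum count 10, minimum total 15) kept 19981 genes. edgeR 4.0.16 in R 4.3.3 fitted all libraries with TMM factors and a mean per time point. The standard error is the absolute log2 fold change over the square root of F. The authors' own test was limma-voom; it (limma 3.58.1), DESeq2 1.42.0, other scalings, no filter, 2-group fits, a replicate block and each library left out in turn were alternatives. The tests were first checked on simulated data. Counted reads ran from 27496009 to 49488345 per library, and an exact permutation test of 3 against 3 cannot go below 0.1. Exonic length was the union of all annotated exons.

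The 10 genes and the gene lists were chosen with earlier results of these data known. Named genes are the 10, at most the 3 tested genes of highest mean CPM in each list, the 3 nearest profiles of each gene, KRT6B, KRT6C, KRT16 and pseudogenes that share sequence, and 3 hypoxia genes as a label check. Some genes under this rule are not reported here. Markers of other cell types named for low counts were chosen after their values were seen. Sequences were handled with Biopython 1.88 and numba 0.67.0 and plots drawn with matplotlib 3.10.9, under Python 3.11.15 with pandas 2.3.3 and numpy 2.4.6.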

Additional observations from a re-analysis of the deposited data

Results flagged for a closer look

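A difference between successive hypoxic time points was called for 4 genes (edgeR, quasi-likelihood, Benjamini-Hochberg). TP63 changed by 0.77 on the log2 scale from 6 h to 12 h (adjusted p = 0.0205) and by -0.54 from 12 h to 24 h (adjusted p = 0.0384) and these comparisons share the 12 h libraries. Both TP63 calls were lost without 12 h replicate 2 or replicate 3, and the former under library size alone (adjusted p = 0.163). KRT6A changed by -0.79 (adjusted p = 0.0199), KRT8 by 0.87 (adjusted p = 0.0192) and KRT18 by 0.56 (adjusted p = 0.0364) from 12 h to 24 h. All 4 calls from 12 h to 24 h were lost without 12 h replicate 3 and with only the 2 groups in the fit, and those of KRT8 and KRT18 under library size alone (adjusted p = 0.222 and 0.797). The 24 h group holds 2 libraries of which replicate 2 stood apart.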

How the results depend on the processing

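Of 900 values, 50 log2 fold changes under 18 alternatives each, 799 kept their direction and their side of the threshold, 57 lost a call, 30 gained one and 14 changed sign. The counts of calls at 6 h and 12 h against normoxia stayed within 1.5 times of 8 and 9 under all alternatives. At 24 h library size alone gave 6 calls against 10. From 6 h to 12 h the count of 1 became 3 with DESeq2, 4 without a filter, 4 with only the 2 groups compared and 0 with library size alone in edgeR (4 at an unadjusted p under 0.05), with 0 to 4 when 1 library was left out. From 12 h to 24 h the count of 4 became 7 with DESeq2, 1 with the replicate block and 0 with only the 2 groups compared in edgeR (3 at an unadjusted p under 0.05), with 0 to 7 when 1 library was left out.

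Library size alone reversed KRT13 at 6 h (-0.0714), KRT19 at 12 h (-0.442), KRT5 (-0.208), KRT13 (-0.131) and KRT19 (-0.372) at 24 h, and KRT15 from 12 h to 24 h (-0.181). KRT19 at 12 h ran from -0.0946 to 0.14, KRT14 from 6 h to 12 h from -0.00196 to 0.367 and KRT15 from 12 h to 24 h from -0.105 to 0.425 over the fits without 1 library. The cause of these reversals beyond the scaling itself was not tested.

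The replicate block reversed KRT19 at 12 h (-0.00397) and KRT13 from 12 h to 24 h (0.0186), neither called, and removed the calls of KRT5 (adjusted p = 0.0665) and KRT19 (0.0512) at 24 h and, from 12 h to 24 h, those of TP63 (0.0727), KRT6A (0.0565) and KRT18 (0.0923). Replicate numbers did not pair the libraries: 2 of 15 same-number pairs had a correlation of deviations over 0.1 (-0.156 to 0.207), and 4 of 11 libraries correlated better with their own number than with the others.

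Without division by length the KRT5 to KRT14 ratio was 6.06, 3.77, 4.59 and 2.47 at 0, 6, 12 and 24 h, the KRT8 to KRT18 ratio 1.4, 1.22, 1.22 and 1.47, and the basal to simple ratio 18.1, 21.5, 23.3 and 19.2. With canonical transcript lengths, an alternative chosen after seeing the data, they were 4.43, 2.75, 3.35 and 1.81, then 1.11, 0.965, 0.97 and 1.16, and 14.1, 18, 19.6 and 17.2 for basal to simple. The 24 h group holds 2 libraries, the fewest of any group, which limits its comparisons.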
